A study of Mus musculus with 48 samples.

Results

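Liver mRNA levels of 9 genes that peroxisome proliferator-activated receptor alpha (PPAR alpha) is known to drive, but that are not enzymes of the fatty-acid oxidation spiral, were followed across the doses of dichloroacetic acid (DCA), a by-product of water chlorination that inhibits pyruvate dehydrogenase kinase. The members were Vnn1, Vnn3, Angptl4, Fgf21, Ucp2, Ucp3, Cpt1b, Creb3l3 and Txnip, taken by symbol from the expression tables. Of these 9, the table of frozen liver (FROZ) lists 7 among its 11275 genes, and the table of formalin-fixed paraffin-embedded liver (FFPE) lists 5 among its 6673 genes. Vnn3 and Fgf21 are in the FROZ table only, and Vnn1 and Ucp3 were not analysed here. The tables hold 24 libraries each from the same 24 male B6C3F1 mice, aged 4 weeks, which drank water with 0, 1.0, 2.0 or 3.5 g/L DCA for 6 days, with 6 mice per group. These concentrations correspond to 0 (vehicle), 198, 313 and 427 mg/kg-d. FROZ libraries were made from RNA isolated from mixed lobes, and FFPE libraries from lysed sections of the left lateral and right medial lobes, so preservation, lobe and input differ together between the tables. Per the study, both tissues had been stored for decades before use. The RNA isolated from frozen liver had a low mean RNA integrity number, a measure of how whole RNA is. The assay was TempO-Seq, in which paired oligos that meet on a transcript are ligated, amplified and sequenced as its tag.

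PPAR alpha is a nuclear receptor that binds fatty acids, pairs with a retinoid X receptor and turns on genes for the uptake, activation and oxidation of fatty acids in hepatocytes during fasting or under peroxisome proliferators. It also acts on genes outside that pathway. Among them are secreted proteins that signal the fasted state to other tissues (Angptl4, Fgf21), mitochondrial carriers (Ucp2, Ucp3), pantetheinases that recycle coenzyme A precursors (Vnn1, Vnn3), and Creb3l3, a liver transcription factor that acts together with PPAR alpha. Txnip, which binds thioredoxin and restrains glucose uptake, is best known as a target of the glucose-sensing factor ChREBP. Cpt1b stands closest to oxidation, since carnitine palmitoyltransferase 1 moves fatty acids toward the mitochondrion, but it is the muscle isoform, and the liver mainly uses Cpt1a.

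In GRCm38 the measured genes lie at chr17:33773750-33781830 (Angptl4), chr7:45613886-45615490 (Fgf21), chr10:81084324-81098874 (Creb3l3) and chr15:89416405-89425863 (Cpt1b), all on the minus strand. On the plus strand lie Txnip at chr3:96557957-96561883, Ucp2 at chr7:100493337-100502020 and Vnn3 at chr10:23851462-23869843. Each is annotated as protein coding. No 50-base window of the transcripts of Angptl4, Fgf21, Creb3l3, Txnip, Ucp2 or Vnn3 occurs in a transcript of another gene. For Cpt1b, 78.6% of these windows also occur in Gm44502, a read-through gene that spans Cpt1b and its neighbour Chkb.

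The start-site sequences of 3 members that were higher at the top dose are shown because they hold letters of known response elements. The RefSeq table of promoters (GRCm38.p6) has entries for 6 members, Txnip, Fgf21, Ucp2, Ucp3, Vnn3 and Creb3l3 (with 2 starts). Angptl4, Cpt1b and Vnn1 have none there. Both strands were searched over windows from 250 bases before the start to 50 after it, and the 250 bases before the start are printed 5′ to 3′ in the sense of the gene with matches in capitals.
Txnip, chr3:96557707-96557956, plus strand: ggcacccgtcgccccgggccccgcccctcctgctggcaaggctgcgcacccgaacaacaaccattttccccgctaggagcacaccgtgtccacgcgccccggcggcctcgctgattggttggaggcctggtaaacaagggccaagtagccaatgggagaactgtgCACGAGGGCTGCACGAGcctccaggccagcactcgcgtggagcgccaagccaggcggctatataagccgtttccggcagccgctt
Fgf21, chr7:45615491-45615740, minus strand: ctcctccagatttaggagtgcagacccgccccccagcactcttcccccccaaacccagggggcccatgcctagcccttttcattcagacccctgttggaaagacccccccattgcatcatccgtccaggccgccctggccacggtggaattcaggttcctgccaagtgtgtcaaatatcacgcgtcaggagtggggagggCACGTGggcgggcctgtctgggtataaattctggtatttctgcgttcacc
Creb3l3, downstream start, chr10:81092592-81092841, minus strand: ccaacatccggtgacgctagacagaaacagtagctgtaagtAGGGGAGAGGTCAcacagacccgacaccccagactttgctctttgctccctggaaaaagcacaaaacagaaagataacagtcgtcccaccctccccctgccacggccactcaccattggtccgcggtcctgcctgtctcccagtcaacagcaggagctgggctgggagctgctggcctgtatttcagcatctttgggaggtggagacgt
In Txnip the capitals mark a pair of CACGNG spaced by 5 bases, a loose form of the paired E-box that ChREBP binds, at positions -85 to -69 from the start. Of all 32851 promoters, 0.0487% hold such a pair. Fgf21 holds the single E-box CACGTG, which reads the same on both strands, at positions -50 to -45, as 7.15% of promoters do. In Creb3l3 the capitals mark a pair of AGGNNA spaced by 1 base, a loose direct repeat of the kind PPAR alpha binds, at positions -209 to -197, found in 2.87% of promoters. The other of the 2 Creb3l3 starts holds no match of any searched pattern. The repeat includes AGGTCA, a receptor core site that 16.3% of promoters hold and that overlaps the loose repeat by construction, and none of the 6 members with an entry holds AGGTCA as an exact pair spaced by 1 base, found in 0.0396%. Ucp2, which was also higher at the top dose, and Vnn3 hold no match of any searched pattern. Ucp3 holds AGGTCA at positions -149 to -144 and -44 to -39. A match of letters is a description of these windows and not a binding site.

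Counts-per-million values (CPM) are shares of the reads on the listed genes of 1 table, and levels are given as log2(CPM + 1), the deposited scale. Per the study's methods, reads of overly abundant transcripts were attenuated to the same degree in all samples. Levels of different genes, and sums over genes, are therefore shares of reads and not of transcripts. Since the tables were scaled apart, each comparison of doses stayed inside 1 table. Reads on listed genes, recovered from the step of the low values, numbered 6690000 to 9840000 per library in FROZ and 1830000 to 6020000 in FFPE, and 12 to 61 genes per FROZ library and 65 to 1580 per FFPE library were listed at 0. A value of 0 allows up to 3 reads, which covers counting error only. All 8 hepatocyte markers were listed in FROZ and 7 in FFPE, so the labelled tissue held its defining transcripts. Their summed level was lower at the dose at which most members rose. It was 30810 to 34980 CPM in vehicle mice against 24790 to 28970 at 427 mg/kg-d in FROZ, and 39120 to 50580 against 25300 to 30440 CPM in FFPE. Of these markers 2 of 8 fell at 427 mg/kg-d in FROZ (Hpx and Fgb), where 7.33% of all genes were called lower. In FFPE 4 of the 7 fell (these 2, Apoa1 and Serpina1a), where 58 of 6673 genes were called lower. With median-ratio scaling in place of CPM, 5 of the 8 fell in FROZ at 427 mg/kg-d. Their median log2 fold change was then -0.50, against -0.007 over all genes. The part of this shift in the members' values was not tested. The skeletal muscle marker Acta1 stood apart in vehicle mouse 5 in FROZ (1780 CPM against a median of 8.72 among vehicle mice), which touches Cpt1b below. In FFPE, 4 libraries (mice 49, 52 and 54 at 198 mg/kg-d and mouse 73 at 313 mg/kg-d) had over 1000 genes at 0. Differences are limma estimates with 95% intervals, and a gene was called at a Benjamini-Hochberg adjusted p (FDR) under 0.05 over all genes of the table and a DEG if the fold change also exceeded 2. Log2 fold changes are on the log2(CPM + 1) scale, which understates changes of low genes.

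In FROZ, 5 of 7 members rose at 427 mg/kg-d (Angptl4, Fgf21, Creb3l3, Txnip and Ucp2), where 30.1% of all genes were called and 22.7% were called higher. Of these, 4 were DEGs, against 3.5% of all genes, and in all 5 the 6 treated mice lay above the 6 vehicle mice, as in 11.4% of all genes. The median log2 fold change of the 7 members was 1.13, that of all genes 0.10. At 313 mg/kg-d 3 of 7 were called (Fgf21, Creb3l3 and Ucp2, all higher, against 26.7% of all genes called and 20.5% called higher), with a median of 0.32 against 0.11. At 198 mg/kg-d limma called 0 of 7, where it called 1.56% of all genes, and 2 (Angptl4 and Vnn3, both lower) had an unadjusted p under 0.05. For that unadjusted count no share over all genes is given, so nothing is read from it. A dose slope was called for 6 of 7, Vnn3 being the exception, against 32.2% of all genes. Median-ratio scaling in place of CPM moved the median change of all genes by -0.11 on the log2 scale at both 313 and 427 mg/kg-d and took the share of higher among all calls at 427 mg/kg-d from 75.6 to 50%. Under it the 5 calls at 427 mg/kg-d stood, and of the 3 at 313 mg/kg-d only that of Ucp2 did.

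**Figure D1:**
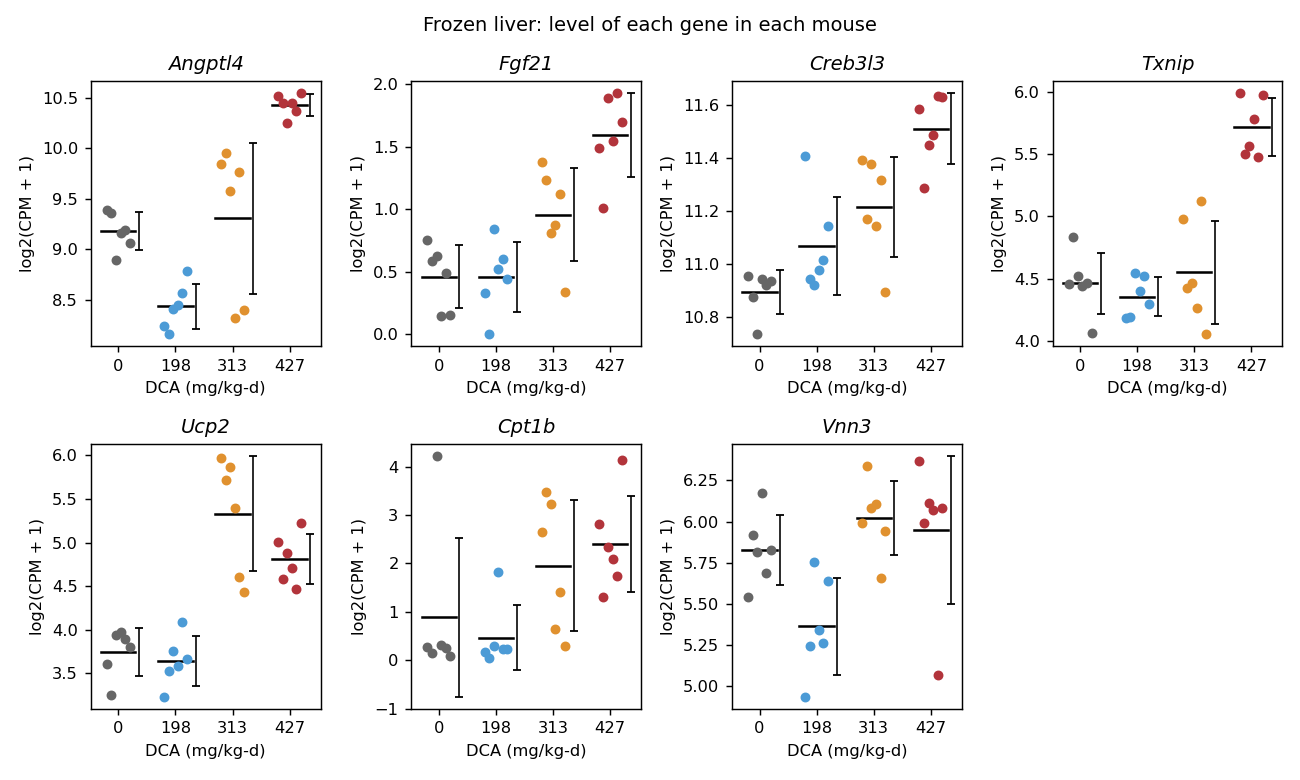
Levels of the 7 members listed in FROZ, as log2(CPM + 1) per mouse (points) against the dose of DCA in mg/kg-d, with the group mean (line) and SD (bar), 6 mice per dose. Angptl4, Fgf21, Creb3l3, Txnip and Ucp2 do not overlap between vehicle and 427 mg/kg-d, while Cpt1b has 1 vehicle mouse at 4.22 and Vnn3 overlaps.

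Angptl4 encodes a secreted inhibitor of lipoprotein lipase that is induced by fasting. In FROZ its level in vehicle mice ran from 8.90 (mouse 5) to 9.39 (mouse 3) with a median of 9.18. At 198 mg/kg-d the 6 mice ran from 8.16 to 8.78 with a median of 8.43, so that each lay below every vehicle mouse, as in 0.479% of all genes. At 313 mg/kg-d the mice parted, with 76 and 78 at 8.32 and 8.39, within the range at 198 mg/kg-d, and the other 4 at 9.58 to 9.95. At 427 mg/kg-d all 6 lay within 10.25 to 10.55, above every mouse of the other groups. The log2 fold change was -0.74 (95% interval -1.17 to -0.32, FDR 0.0634) at 198 mg/kg-d, 0.13 (-0.30 to 0.56, FDR 0.697) at 313 mg/kg-d and 1.26 (0.83 to 1.69, FDR 3.84e-05) at 427 mg/kg-d. Both neighbouring steps were called, with 0.87 from 198 to 313 mg/kg-d (FDR 0.00626, 11.7% of all genes called) and 1.13 from 313 to 427 mg/kg-d (FDR 0.00279, 3.07% called). The value at 198 mg/kg-d was on the other side of the threshold without mouse 76 (FDR 0.0323) or mouse 78 (FDR 0.0325) and when only the 12 libraries of vehicle and 198 mg/kg-d were fitted (FDR 0.0034). The median-ratio estimate at 313 mg/kg-d was -0.01, so no direction is given there.

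Fgf21 encodes a hormone that the liver releases in fasting and under mitochondrial stress. It was scarce, with 1 to 6 reads per vehicle library. Its level was 0.15 to 0.75 in vehicle mice (median 0.54), 0 to 0.84 at 198 mg/kg-d (median 0.48), 0.33 to 1.37 at 313 mg/kg-d (median 0.99) and 1.01 to 1.93 at 427 mg/kg-d (median 1.62). The vehicle and 198 mg/kg-d groups covered each other, 5 of 6 mice at 313 mg/kg-d lay above all vehicle mice, and mouse 78 lay among the vehicle mice. At 427 mg/kg-d Fgf21 rose by 1.13 (0.77 to 1.49, FDR 1.62e-05), and the step from 313 to 427 mg/kg-d was 0.64 (FDR 0.0448), a call that was lost in 13 of 24 fits that each left out 1 mouse (FDR up to 0.11, without mouse 101). At 313 mg/kg-d the rise was 0.50 (0.13 to 0.86, FDR 0.037), a call that was lost without mouse 6, 7, 8, 73, 74 or 77 (FDR up to 0.0996, without mouse 73), with offsets of 0.1 or 5 CPM and with median-ratio scaling.

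Creb3l3 encodes an endoplasmic reticulum-bound transcription factor that is cleaved on stress or fasting and drives Fgf21 and apolipoprotein genes. It was abundant, with vehicle mice at 10.74 (mouse 5) to 10.96 (median 10.93). At 198 mg/kg-d the range was 10.92 to 11.41 (median 10.997, mouse 49 highest), at 313 mg/kg-d 10.89 to 11.39 (median 11.25, mouse 78 lowest) and at 427 mg/kg-d 11.29 to 11.63 (median 11.54). The group medians thus stood in the order of the doses, and 0, 4, 5 and 6 of 6 mice lay above the highest vehicle mouse from vehicle to 427 mg/kg-d. The log2 fold change was 0.17 (-0.03 to 0.37, FDR 0.376), 0.32 (0.12 to 0.52, FDR 0.0161) and 0.62 (0.42 to 0.82, FDR 2.15e-05) from the lowest to the highest dose, and neither neighbouring step was called (FDR 0.36 and 0.0959). Creb3l3 did not reach a fold change of 2 at any dose (1.53 at 427 mg/kg-d), and the call at 313 mg/kg-d was lost with median-ratio scaling (0.18, FDR 0.224).

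Txnip was called against vehicle only at the top dose in FROZ. Its level was 4.06 to 4.83 in vehicle mice (median 4.46), 4.18 to 4.55 at 198 mg/kg-d (median 4.35) and 4.06 to 5.12 at 313 mg/kg-d (median 4.44), where mice 73 and 77 lay above all vehicle mice and mouse 78 was lowest. At 427 mg/kg-d the range was 5.48 to 5.99 (median 5.67), above every mouse of the other groups. The rise from vehicle was 1.25 (0.94 to 1.56, FDR 4.09e-07) and that from 313 mg/kg-d was 1.16 (0.85 to 1.47, FDR 4.72e-05). At 198 and 313 mg/kg-d the differences from vehicle were -0.11 (FDR 0.77) and 0.09 (FDR 0.724).

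Ucp2 had its highest levels at the middle dose. This inner mitochondrial membrane carrier exports metabolites of the citric acid cycle and is abundant in macrophages, while hepatocytes normally express little of it. Vehicle mice lay at 3.26 to 3.98 (median 3.85) and mice at 198 mg/kg-d at 3.23 to 4.09 (median 3.62). At 313 mg/kg-d the range was 4.43 to 5.97 (median 5.56), with mice 77 and 78 lowest at 4.61 and 4.43, and at 427 mg/kg-d it was 4.46 to 5.23 (median 4.80). Every mouse of the upper doses thus lay above every mouse of the lower groups, while the 2 upper groups overlapped. Ucp2 rose by 1.59 (1.15 to 2.03, FDR 4.48e-06) at 313 mg/kg-d, where 2.31% of all genes were DEGs and Ucp2 was the only member among them, and by 1.07 (0.63 to 1.505, FDR 0.000371) at 427 mg/kg-d. The difference of 427 minus 313 mg/kg-d, -0.52 (-0.96 to -0.08), was not called (FDR 0.193), so the order of those 2 doses is not settled by the test. The summed level of the 8 listed of 10 Kupffer cell markers (Timd4 and Marco are not listed) was 222.7 to 300.4 CPM in vehicle mice, 161.8 to 320.5 at 313 mg/kg-d and 142.4 to 214.4 at 427 mg/kg-d. Of these 8 markers limma called 0 at 313 mg/kg-d, against 26.7% of all genes. At 427 mg/kg-d 5 of the 8 fell, against 7.33% of all genes called lower. Of 5 neutrophil markers 3 are listed (S100a9 and Mpo are not). S100a8 and Retnlg rose at 313 mg/kg-d by 0.88 (FDR 0.0116) and 0.73 (FDR 0.0102), where 20.5% of all genes were called higher. The summed level of the 3 was 3.54 to 6.70 CPM in vehicle mice, 3.79 to 11.65 at 313 mg/kg-d and 1.91 to 7.33 at 427 mg/kg-d. With 3 scarce genes nothing is read from this count. The part of other cell types in the level of Ucp2 was not tested, and in bulk liver fewer cells of a type and less RNA per cell cannot be told apart.

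**Figure D2:**
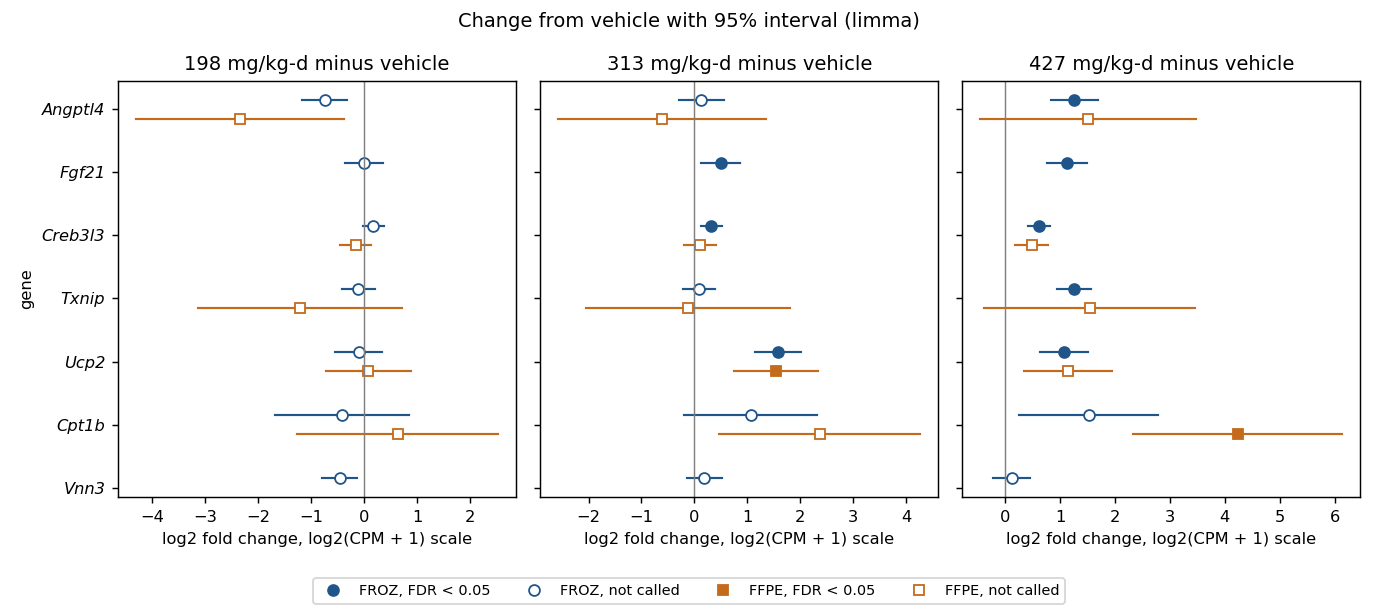
Log2 fold change from vehicle on the log2(CPM + 1) scale (x axis) of each member (y axis) at 198, 313 and 427 mg/kg-d, with 95% intervals from limma, circles for FROZ and squares for FFPE, filled where the FDR was under 0.05. In FROZ, 5 of 7 members are filled at 427 mg/kg-d, and in FFPE only Cpt1b is.

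Cpt1b showed 1 vehicle mouse apart from the rest. In FROZ the vehicle mice other than 5 lay at 0.09 to 0.32 and mouse 5 at 4.22. At 198 mg/kg-d 5 mice lay at 0.05 to 0.30 and mouse 52 at 1.83. The 313 mg/kg-d mice ranged from 0.30 (mouse 78) to 3.47 (median 2.03), and the 427 mg/kg-d mice from 1.32 to 4.13 (median 2.21). All 6 mice at 427 mg/kg-d thus lay above 5 of 6 vehicle mice and below mouse 5. With all mice the log2 fold change at 427 mg/kg-d was 1.52 (0.26 to 2.78) with an FDR of 0.0624, and Cpt1b was called for a dose slope (FDR 0.0392), which was lost in 10 of 24 fits that each left out 1 mouse (FDR up to 0.0937, without mouse 102). Without mouse 5 the value was 2.19 with an FDR of 0.00123 at 427 mg/kg-d, and 1.73 with an FDR of 0.0104 at 313 mg/kg-d. Without mouse 98 the FDR at 427 mg/kg-d was 0.0429, and without mouse 102 the value was 1.18 with an FDR of 0.17.

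Mouse 5 also had the highest level of Acta1, the actin of skeletal muscle, at 10.80 in FROZ, where mouse 6 had 6.37 and the other vehicle mice 2.73 to 3.54. At 427 mg/kg-d Acta1 lay at 1.76 to 3.10. Mouse 5 also had the highest sum of the 7 listed stellate cell markers, 637.6 CPM against a vehicle median of 278.5. Acta1 is the only one of 6 muscle markers in the tables (Ckm, Mb, Myh4, Tnnt3 and Pvalb are not listed), and the part of muscle RNA in the Cpt1b level of mouse 5 was not tested. In the FFPE library of mouse 5 Cpt1b was 0.70, within the range of the other vehicle mice. Mouse 52, highest for Cpt1b at 198 mg/kg-d, had 155.6 CPM of Fabp4, the only listed one of 6 adipocyte markers, against a median of 24.8 at that dose, and the part of fat tissue was likewise not tested. The 3 genes whose levels over the 24 FROZ libraries were most like Cpt1b were Lrrc39 (r = 0.90), Aldoa (r = 0.90) and Ptp4a3 (r = 0.88). Without mouse 5 they were Gm44502 (r = 0.94), which shares its reads, Txnrd1 (r = 0.89) and Ppp2r2d (r = 0.88).

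The reads of the Cpt1b locus were split by the authors' expectation maximization over the rows of Cpt1b, Gm44502 (chr15:89416405-89429696) and Chkb (chr15:89426360-89429908), a choline kinase. In FROZ, Gm44502 held more than Cpt1b in 23 of 24 libraries, at 1.43 to 3.80 in vehicle mice and 4.04 to 5.25 at 427 mg/kg-d. When the CPM of Cpt1b and Gm44502 were summed, vehicle mice other than 5 had 1.77 to 5.10 CPM, mouse 5 had 30.6 CPM and mice at 427 mg/kg-d had 16.95 to 53.7 CPM. The log2 fold change of this sum was 1.39 (FDR 0.0364) at 313 mg/kg-d and 2.19 (FDR 0.00117) at 427 mg/kg-d, with mouse 5 kept. With Chkb added to the sum it was 1.62 (FDR 0.00084) at 427 mg/kg-d and 0.90 (FDR 0.0583) at 313 mg/kg-d. These sums were chosen after the values were seen.

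**Figure D3:**
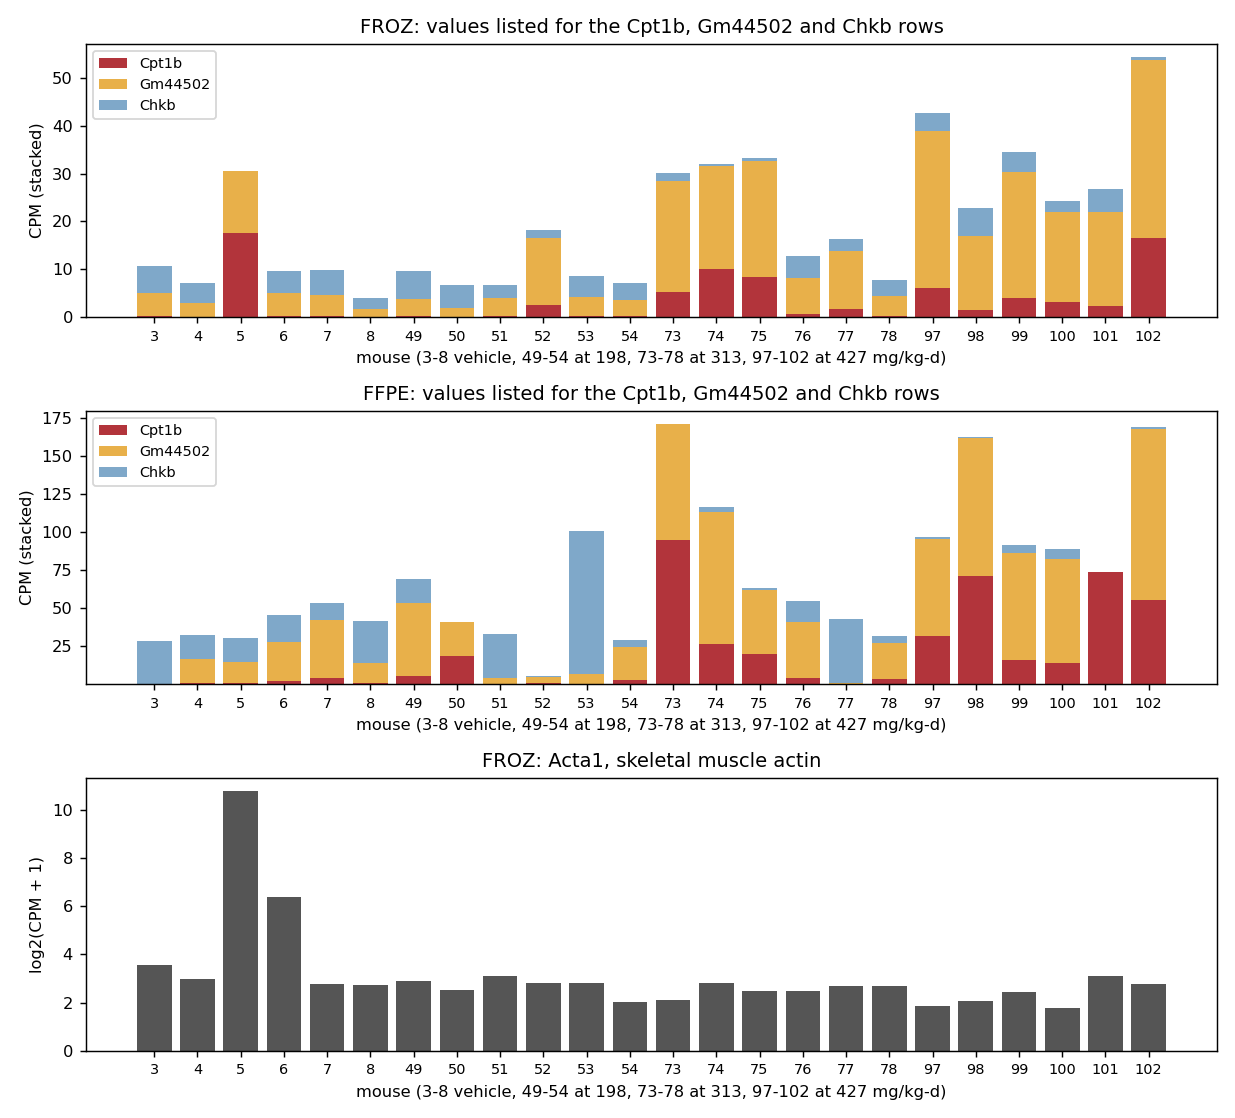
Stacked CPM of Cpt1b, Gm44502 and Chkb in each FROZ library (top) and FFPE library (middle), and log2(CPM + 1) of Acta1 in each FROZ library (bottom), by mouse number. Vehicle mouse 5 stands apart in FROZ with 30.6 CPM of Cpt1b plus Gm44502 and the highest bar of Acta1, and Gm44502 exceeds Cpt1b and Chkb together in 15 of 24 libraries of each table.

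Vnn3, a pantetheinase of the vanin family, was not called against vehicle at any dose in FROZ. Vehicle mice lay at 5.54 to 6.17 (median 5.82), mice at 198 mg/kg-d at 4.94 to 5.76 (median 5.30), mice at 313 mg/kg-d at 5.66 to 6.34 (median 6.04) and mice at 427 mg/kg-d at 5.07 to 6.37 (median 6.08). Of the 6 mice at 198 mg/kg-d, 4 lay below all vehicle mice, and at 427 mg/kg-d only mouse 101 did. The differences from vehicle were -0.46 (-0.80 to -0.13, FDR 0.132), 0.19 (-0.14 to 0.53, FDR 0.42) and 0.12 (-0.21 to 0.46, FDR 0.623) from the lowest to the highest dose, the last being -0.02 with median-ratio scaling. From 198 to 313 mg/kg-d Vnn3 rose by 0.65 (0.32 to 0.99, FDR 0.00863), with 5 of 6 mice at 313 mg/kg-d above all mice at 198 mg/kg-d.

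The members were not all called at the same step, and no test compared their dose patterns. From 198 to 313 mg/kg-d limma called 3 of 7 (Vnn3, Angptl4 and Ucp2), against 11.7% of all genes. From 313 to 427 mg/kg-d it called 3 of 7 (Angptl4, Fgf21 and Txnip), against 3.07%. Angptl4 was in both sets. The sets rest on a threshold, as Fgf21 had similar steps of 0.50 (FDR 0.0633) and 0.64 (FDR 0.0448), of which only the upper was called. At 313 mg/kg-d the same mice stood low for several members in FROZ. Mouse 78 was the lowest of its group for Fgf21, Creb3l3, Txnip, Ucp2 and Cpt1b and second lowest for Angptl4. Over the 42 listed PPAR alpha targets of fatty-acid oxidation and handling, the median difference from the vehicle mean was 0.55 in mouse 78 and 0.99 to 1.48 in the other 5 mice at that dose. In FFPE, with 38 of these genes listed, it was 0.76 in mouse 78 and 1.03 to 1.66 in the other 5. The members did not all follow in FFPE, where mouse 78 was lowest for Ucp2 (6.32) and second lowest for Creb3l3 and Cpt1b but second highest for Txnip (5.42) and above 3 of the other 5 mice for Angptl4 (3.46), and mouse 76 was second highest for Angptl4 (3.63). Mouse 76 was at 0.99 in FROZ with the lowest level of Angptl4 and second lowest of Txnip and Cpt1b. Without mouse 78 the log2 fold change of Fgf21 at 313 mg/kg-d was 0.62 with an FDR of 0.00815.

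**Figure D4:**
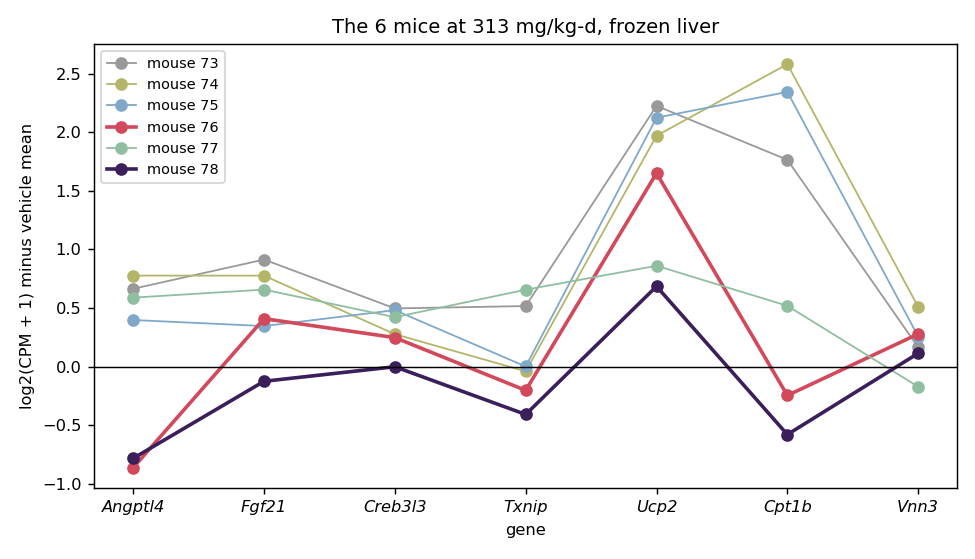
Level of each member in the 6 FROZ libraries at 313 mg/kg-d minus the mean of the 6 vehicle libraries, in log2(CPM + 1) units (y axis), by gene (x axis), with 1 line per mouse and mice 76 and 78 in bold. Mouse 78 lies lowest for 5 members, and mice 76 and 78 lie apart from the other 4 for Angptl4.

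In FFPE, 1 of 5 members was called at 427 mg/kg-d (Cpt1b), where 2.41% of all genes were called, and 1 of 5 at 313 mg/kg-d (Ucp2), where 1.08% were. At 198 mg/kg-d limma called 0 of 5, against 0.0599% of all genes, and 1 (Angptl4) had an unadjusted p under 0.05. The median log2 fold change of the 5 at 427 mg/kg-d was 1.51, against 0.18 for all genes. All 6 mice at 427 mg/kg-d lay above all vehicle mice for Cpt1b, Creb3l3 and Txnip, as in 2.94% of all genes. With array quality weights, or with the 12 libraries of vehicle and 427 mg/kg-d alone, limma called 4 of 5 at that dose, Angptl4 being the exception, where these fits called 7.85 and 6.4% of all genes. A dose slope was called for 1 of 5, Cpt1b, against 2.17% of all genes. Between neighbouring doses limma called 0 of 5 members, where 1.06% and 0.375% of all genes were called and 1 and 2 members had an unadjusted p under 0.05. For the unadjusted counts at 198 mg/kg-d and between neighbouring doses no share over all genes is given, so nothing is read from them.

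Creb3l3 and Ucp2 were well covered in FFPE. Creb3l3 was at 10.69 to 11.01 in vehicle mice (median 10.83), 10.32 to 10.95 at 198 mg/kg-d (median 10.70), 10.68 to 11.42 at 313 mg/kg-d (median 10.82) and 11.09 to 11.52 at 427 mg/kg-d (median 11.32). The difference at 427 mg/kg-d was 0.49 (0.19 to 0.79) with an FDR of 0.081, beside 0.62 in FROZ. Ucp2 was at 5.31 to 7.25 in vehicle mice (median 5.83), 4.85 to 7.45 at 198 mg/kg-d (median 6.13), 6.32 to 8.30 at 313 mg/kg-d (median 7.76, mouse 78 lowest) and 7.03 to 7.37 at 427 mg/kg-d (median 7.19). As in FROZ, the median of Ucp2 was highest at 313 mg/kg-d, and the groups overlapped. The rise was 1.54 (0.74 to 2.34, FDR 0.0421) at 313 mg/kg-d, a call that was lost in 16 of 24 fits that each left out 1 mouse (FDR up to 0.127, without mouse 8), and the difference at 427 mg/kg-d was 1.15 (0.35 to 1.95, FDR 0.162).

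Txnip was listed at 0 in 3 FFPE libraries, those of mice 49, 53 and 73. Its vehicle range was 2.68 to 4.96 (median 4.28), its range at 198 mg/kg-d 0 to 5.28 (median 3.52) and that at 313 mg/kg-d 0 to 5.80 (median 4.54). At 427 mg/kg-d the 6 mice lay within 5.37 to 5.75 (median 5.56), all above the vehicle mice, and the difference of 1.54 (-0.38 to 3.46) had an FDR of 0.796. The groups at 198 and 313 mg/kg-d covered the whole vehicle range.

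Angptl4 in FFPE was listed at 0 in vehicle mouse 8 and in mice 49, 50, 52 and 53 at 198 mg/kg-d. The other vehicle mice were at 2.46 to 5.49, mouse 54 at 0.44 and mouse 51 at 5.08. At 313 mg/kg-d it was 0.62 to 3.89 (median 3.30) and at 427 mg/kg-d 2.74 to 5.97 (median 4.95). The difference at 198 mg/kg-d was -2.35 (-4.31 to -0.38, FDR 0.343), beside -0.74 in FROZ, and at 427 mg/kg-d it was 1.51 (-0.45 to 3.47, FDR 0.826), beside 1.26. Of these 5 libraries at 0, mice 49 and 52 are among the 4 libraries with over 1000 genes at 0. Without those 4 libraries the difference at 198 mg/kg-d was -1.57 with an FDR of 0.737. The mean vehicle level of Angptl4 was 9.18 in FROZ and 3.27 in FFPE, a difference of -5.91 that ranked 10 from the lowest among 6591 genes in both tables, whose median difference was 0.33. For Ucp2 the means were 3.75 and 6.05, a difference above that of 89.8% of these genes. Preservation, lobe, input and scaling cannot be told apart in these level differences.

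Cpt1b had the largest FFPE estimate of the 5 members at 427 mg/kg-d. Its vehicle libraries held few reads, 0 to 24.3 (median 3.38). Vehicle mice were at 0 to 2.37 (median 0.75), mice at 198 mg/kg-d at 0.01 to 4.27 (median 1.30), mice at 313 mg/kg-d from near 0 (mouse 77) to 6.58 (median 3.27) and mice at 427 mg/kg-d at 3.88 to 6.23 (median 5.42). The rise at 427 mg/kg-d was 4.24 (2.33 to 6.14, FDR 0.0065), and a dose slope was called (FDR 0.00567). When Cpt1b and Gm44502 were summed, the difference was 3.03 with an FDR of 0.088, and with Chkb added 1.51 with an FDR of 0.143, so the call did not hold for the locus as a whole. Mice 98 and 101, with the highest Cpt1b at 427 mg/kg-d (6.17 and 6.23), also had the highest FFPE values of the muscle marker Acta1, 267.2 and 440.2 CPM, against 10.14 to 16.47 CPM in the other 4 mice at that dose and 8.43 to 43.5 CPM in vehicle mice. Without these 2 libraries the difference of Cpt1b was 3.73 with an FDR of 0.066, limma called 0 of 5 members and 1.59% of all genes at 427 mg/kg-d, and the part of muscle RNA was not tested further. In mouse 101, Chkb was listed at 0, Gm44502 was near 0 and Cpt1b was at 6.23, whereas Gm44502 was at 6.02 to 6.82 in the other 5 mice at 427 mg/kg-d. The sum of Cpt1b and Gm44502 was thus lowest in mouse 101, at 73.9 CPM, against 82.1 to 167.7 CPM in those 5 mice. Mouse 98 had 161.9 CPM. Mouse 73 at 313 mg/kg-d, with the highest Cpt1b in FFPE (6.58), had Acta1 listed at 0.

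**Figure D5:**
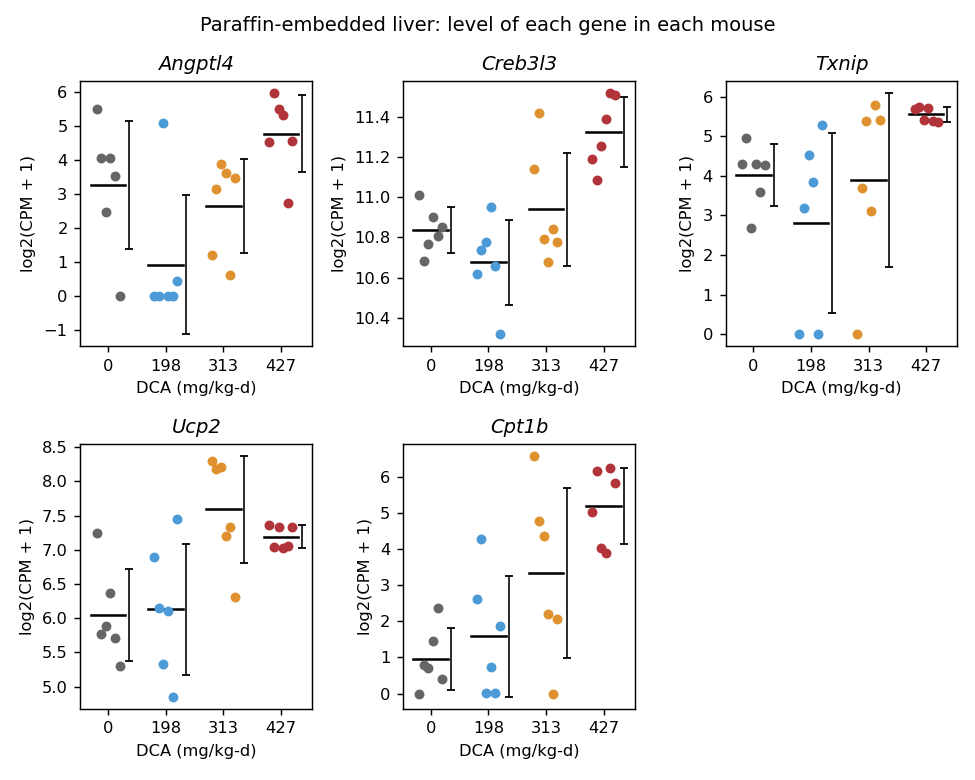
Levels of the 5 members listed in FFPE, as log2(CPM + 1) per mouse (points) against the dose of DCA in mg/kg-d, with the group mean (line) and SD (bar), 6 mice per dose. All 6 mice at 427 mg/kg-d lie above all vehicle mice for Creb3l3, Txnip and Cpt1b, and several Angptl4 and Txnip points at 198 mg/kg-d are listed at 0.

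Whether the response to DCA differed between preservations was tested by subtracting the FROZ from the FFPE level in every mouse. limma called 0 of 5 members at each of the 3 doses, where 2, 0 and 2 of 6591 genes (0.0303, 0 and 0.0303%) were called from the lowest to the highest dose. An unadjusted p under 0.05 was reached by 0, 0 and 1 member, and by 750, 487 and 146 of the 6591 genes. The 1 member was Cpt1b at 427 mg/kg-d, with a difference of 2.71 (0.67 to 4.76, unadjusted p = 0.0115, FDR 0.999975). This difference includes vehicle mouse 5, with Cpt1b at 4.22 in FROZ and 0.70 in FFPE. It also includes mouse 101, whose Gm44502 was near 0 in FFPE, and the part of either mouse was not tested. At 427 mg/kg-d the difference was 0.08 (-0.79 to 0.95) for Ucp2, -0.13 (-0.59 to 0.33) for Creb3l3, 0.25 (-1.86 to 2.37) for Angptl4 and 0.29 (-1.64 to 2.22) for Txnip. The wide intervals for Angptl4 and Txnip do not show that the responses were alike. Once the dose means were taken out, no relation between the levels of a gene in the FROZ and FFPE libraries of the same 24 mice passed the test. Over 5 such relations Pearson's r ran from -0.114 (Angptl4, permutation p = 0.597, Spearman's rho -0.02, p = 0.923) to 0.257 (Ucp2, permutation p = 0.295, rho 0.20, p = 0.396). For Cpt1b, Creb3l3 and Txnip r was 0.206, 0.124 and -0.0935 (permutation p = 0.37, 0.645 and 0.745, two-sided, within dose groups), with rho of 0.147, 0.171 and 0.00435 (p = 0.513, 0.477 and 0.985). Adjusted over the 5 relations, p was 0.745 for each r and 0.855 to 0.985 for rho. Without the 2 mice farthest from the median in FROZ, r was 0.0386 for Angptl4, 0.0138 for Ucp2, 0.286 for Cpt1b, 0.101 for Creb3l3 and -0.175 for Txnip.

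Over the 24 FROZ libraries the genes most like each member were as follows, as a description across libraries that share the doses. Angptl4 went with Lpin2 (r = 0.93), Slc25a34 (0.87) and Txnip (0.87), and Txnip in turn with Krt23 (0.90), Lpin2 (0.89) and Angptl4 (0.87). No other member was in the set of 3 of another. Creb3l3 went with Pex19 (0.95), Acsl1 (0.94) and Ppm1a (0.92), Ucp2 with Serinc2 (0.92), Acsf2 (0.92) and Dhrs4 (0.92), Fgf21 with Slc23a2 (0.92), Ddhd2 (0.90) and Acot3 (0.90), and Vnn3 with Rsf1 (0.86), Psap (0.82) and Prdx1 (0.82).

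The genes around each member were counted in FROZ at 427 mg/kg-d, beside the median change of 0.10 over all genes, of which 22.7% were called higher and 7.33% lower. The shares called higher were near that background for the FGF21 list (23.1%), the CREB3L3 list (22.2%) and the carriers (28.6%), each with few genes, so nothing is read from these counts. Under median-ratio scaling the median of each of these 9 lists stayed above 0, and its counts are given beside the main ones. Of the 42 listed PPAR alpha targets of fatty-acid oxidation and handling, 39 rose and 0 fell, with a median of 1.45 (38 and 0 with median-ratio scaling), and Cyp4a14, an omega-hydroxylase, rose by 8.71, Acot3 by 8.02, Cyp4a10 by 7.09, Acot1 by 5.41 and Acot2 by 4.96. The 5 members called at this dose changed by 0.62 to 1.26. Of 17 genes of PPAR alpha itself, its partners and coregulators, 7 rose and 1 fell, with a median of 0.17 (4 and 2 with median-ratio scaling). Ppara rose by 0.39 (FDR 0.0434), Rxrg, a retinoid X receptor, by 0.80, and Ppard, its sister receptor, fell by 1.84 (FDR 2.05e-07).

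Among 15 listed genes of pantetheine and coenzyme A, 7 rose and 2 fell (median 0.18, and 5 and 3 with median-ratio scaling). Pank1, which starts coenzyme A synthesis, rose by 1.53, the coenzyme A carrier Slc25a42 by 0.85 and the vitamin transporter Slc5a6 by 0.76, whereas Enpp3 fell by 0.70. Among the 9 genes of ANGPTL4 partners and lipoprotein lipase, 3 rose and 3 fell (median 0.31, and 2 and 3 with median-ratio scaling). Lipg, an endothelial lipase, rose by 1.28, Furin, a protease that cleaves ANGPTL4, rose by 0.41, Lmf1, the maturation factor of lipoprotein lipase, fell by 0.41, and Lpl itself was at 0.40 (FDR 0.122). Of 13 listed genes of FGF21 receptors and related factors, 3 rose and 2 fell (median 0.21, and 2 and 3 with median-ratio scaling), with the co-receptor Klb higher by 0.84 and the receptors Fgfr4 and Fgfr3 at -0.64 and -0.63.

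Of 7 listed uncoupling and mitochondrial anion carriers, 2 rose (Slc25a5 by 0.53, Slc25a11 by 0.41) and Slc25a14 fell by 0.26 (1 and 1 with median-ratio scaling), and Ucp1 is not listed. Of 8 listed CPT1 isoforms and regulators, 6 rose and 0 fell (median 1.00, and 5 and 0 with median-ratio scaling), led by the carnitine transporter Slc22a5 (2.17), Cpt2 (1.41) and the carnitine-acylcarnitine carrier Slc25a20 (1.29). Of this list, Cpt1a, Cpt2, Slc25a20 and Mlycd are also counted among the oxidation targets, and Chkb shares reads of the Cpt1b locus. Cpt1a, the liver isoform, had a difference of 0.33 with an FDR of 0.271. Of 18 listed genes of CREB3L3 processing and targets, 4 rose and 3 fell (median 0.21, and 2 and 5 with median-ratio scaling), with Apoc2 higher by 0.82 and Fads2 by 0.71, and with Apcs and Apoa4 at -1.35 and -1.12. Of 18 listed TXNIP partners and genes of glucose sensing, 9 rose and 1 fell (median 0.36, and 7 and 2 with median-ratio scaling). Tkfc, a kinase of fructose breakdown, rose by 1.23, Gpd1 by 1.01 and the thioredoxin reductase Txnrd1 by 0.88, the stress gene Ddit4 fell by 0.99, and the arrestin relative Arrdc4 was at 0.06 (FDR 0.814). Arrdc3, another arrestin relative of Txnip, was called at all 3 doses, at 1.29 (FDR 0.0243), 1.14 and 0.90.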

How the data were processed

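TempO-Seq was run on 48 libraries, a FROZ and an FFPE library of each of 24 mice, with 6 mice per dose. Per the study's methods and the submitters' processing notes, the authors aligned reads to mm10 with STAR 2.6 in Partek Flow, quantified RefSeq transcripts by expectation maximization, removed low genes and deposited log2(CPM + 1) values, scaled separately for the FROZ and FFPE tables. Whole reads were recovered to give depth, the reads behind low values and the limit for values of 0, with values within 0.1 read taken as whole, and entered no test.

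The deposited log2 values were fitted with limma 3.58.1 in R 4.3.3 (moderated test with a trended prior, 24 libraries per table, two-sided), with Benjamini-Hochberg adjustment over all genes of the table. Response differences between tables were fitted to the FFPE level minus the FROZ level in every mouse. Libraries were paired by the animal number in the labels. The pairing was checked across 4815 genes averaging 10 CPM or more in FROZ and in FFPE, with dose means removed. Among FFPE libraries of the same dose only, 21 of 24 FROZ libraries correlated best with that of their own animal. These own correlations were low (median r 0.13, lowest -0.0172, 14 of 24 over 0.1). Permutation tests (100000 resamples) used Python 3.11.15 and scipy 1.17.1. The fits were tested on simulated data.

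The members and gene lists were chosen with earlier results of these data known. All members were named, plus up to 5 called genes of each list with the largest FROZ change at 427 mg/kg-d and the 3 genes most like each member, beside genes named for comparison after their values were seen. Alternatives were offsets of 0.1 and 5 CPM, median-ratio scaling, a minimum mean of 5 CPM, no prior trend, array quality weights, the libraries of 1 dose and vehicle alone, no replicate block, and leaving out each mouse. Chosen after seeing the data were the sums over the Cpt1b locus and the fits without 4 FFPE libraries with many zeros or without FFPE mice 98 and 101. RNA isolation, lobe and preservation differ together between tables.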

Additional observations from a re-analysis of the deposited data

Results flagged for a closer look

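Of 48 groups of 6 values (each measured member at each dose in each table), 5 had a single mouse whose gap to its nearest neighbour exceeded Dixon's 95% limit of 0.625 of the group's range, where chance gives about 1 in 20. Cpt1b in FROZ was 4.22 in vehicle mouse 5, with the next mouse at 0.32. Cpt1b in FROZ was 1.83 in mouse 52 at 198 mg/kg-d, with the next at 0.30. Creb3l3 in FROZ was lowest in vehicle mouse 5, at 10.74, with the next at 10.88. Vnn3 in FROZ was lowest in mouse 101 at 427 mg/kg-d, at 5.07, with the next at 5.99. Angptl4 in FFPE was 5.08 in mouse 51 at 198 mg/kg-d, with the next at 0.44 and the other 4 listed at 0.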

How the results depend on the processing

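With 6 mice per dose, single mice, the long storage of both tissues and the low depth of FFPE limit these results. For each change below the cause was not tested. In FROZ, members called at 198 mg/kg-d went from 0 to 1 (Angptl4) with median-ratio scaling, a minimum mean of 5 CPM, array quality weights and the libraries of that dose and vehicle alone, and at 313 mg/kg-d from 3 to 1 with median-ratio scaling. In FFPE, members called at 313 mg/kg-d went from 1 to 0 with an offset of 0.1 CPM, without the prior trend and with the libraries of that dose and vehicle alone. At 427 mg/kg-d they went from 1 to 4 with array quality weights and with the libraries of that dose and vehicle alone, and to 0 without mice 98 and 101. For an FFPE dose slope they went from 1 to 2 with an offset of 5 CPM and to 4 with array quality weights, and from 198 to 313 mg/kg-d from 0 to 1 with an offset of 5 CPM.

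Leaving out each mouse gave, in FROZ, 0 to 1 called at 198 mg/kg-d (1 without mouse 76 or 78), 2 to 4 at 313, 5 to 6 at 427 (6 without mouse 5 or 98, adding Cpt1b), 5 to 6 for a slope (Cpt1b lost in 10 of 24 fits), 3 to 4 from 198 to 313 (4 without mouse 5, 51, 78 or 98) and 2 to 3 from 313 to 427 mg/kg-d (Fgf21 lost in 13 of 24 fits). In FFPE it gave 0 to 0 at 198 mg/kg-d, 0 to 1 at 313, 1 to 2 at 427 (2 without mouse 74), 1 to 2 for a slope (2 without mouse 3 or 53), 0 to 1 from 198 to 313 (1 without mouse 3, 49, 54 or 78) and 0 to 0 from 313 to 427 mg/kg-d.

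Directions that turned were all of differences that were not called. With median-ratio scaling, FROZ Angptl4 at 313 mg/kg-d was -0.011, Txnip at 313 mg/kg-d -0.0485 and Vnn3 at 427 mg/kg-d -0.022. With array quality weights, FROZ Fgf21 at 198 mg/kg-d was 0.0017, FFPE Txnip at 313 mg/kg-d 0.56 and FFPE Ucp2 at 198 mg/kg-d -0.050. FFPE Txnip at 313 mg/kg-d was 0.14 with an offset of 5 CPM and 0.66 without the 4 libraries with many zeros, where FFPE Ucp2 at 198 mg/kg-d was -0.60. FFPE Cpt1b at 198 mg/kg-d was -0.12 for the sum of 3 genes. Leaving out each mouse turned FROZ Fgf21 at 198 mg/kg-d (-0.081 to 0.087), FROZ Cpt1b at 198 mg/kg-d (-0.69 to 0.25), FROZ Txnip at 313 mg/kg-d (-0.027 to 0.19), FFPE Txnip at 313 mg/kg-d (-0.50 to 0.66) and FFPE Ucp2 at 198 mg/kg-d (-0.18 to 0.34). Of the single-gene values, 1075 kept their direction and side of the threshold, 32 lost a call, 21 gained one and 24 turned. With no replicate block, in place of pairing the 2 libraries of a mouse, 0 of 5 members had a called response difference between tables at each dose, as with the block.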
